A study of Mus musculus with 8 samples.

Results

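Chemokines and their receptors were followed in RNA of the retina in oxygen-induced retinopathy. In this mouse model, raised oxygen stops the growth of retinal vessels in pups, and the ischaemic retina later grows disordered new vessels in room air. The mice were of strain C57BL/6J and 17 days old. The genes were taken by name: every row of the deposited table whose symbol is Ccl, Cxcl, Ccr, Cxcr or Ackr followed by a number and at most 1 letter, which gave 57 of 57010 genes. Control retinas (AAV_NC, 4 libraries) received scAAV, a self-complementary vector derived from adeno-associated virus, in a control form. The knockdown retinas (AAV_sh, 4 libraries) received an scAAV against the long noncoding RNA MM2P, a regulator of macrophage polarization. All 8 libraries share the strain, the age, the retinopathy and an scAAV vector, and retinas without virus or without retinopathy were not analysed here. The promoter of the vector, the cells it reached and whether libraries came from separate animals are not stated in the labels, so p-values measure only the spread between these samples. The treatment label of the knockdown group reads as a knockout, while the design text speaks of a knockdown.

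Chemokines are small secreted proteins that guide the migration of cells, mostly leukocytes, along a gradient. CC and CXC ligands are named for the spacing of their first cysteines, and they act through G protein-coupled receptors named for the class they bind. Atypical receptors (the Ackr genes) bind chemokines without the usual G protein signalling and take them up or carry them. In the ischaemic retina, monocyte-attracting chemokines are known for drawing in macrophages, and Cxcl12 with its receptor Cxcr4 for guiding vessel growth.

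Estimated counts per library summed to 16025695 to 21402898, the controls being the deeper group. At these depths 3 counts, used as the detection floor, correspond to 0.140 to 0.187 CPM, counts per 1000000 counts (counting error only). Photoreceptor markers were abundant in every library, at 31751 to 35580 TPM summed over 8 genes. TPM (transcripts per 1000000) is a level corrected for gene length, so it can be compared between genes. The target itself, listed as Mm2pr, was near its detection limit, controls 1 to 4 having 1, 1, 16.95 and 7.34 estimated counts and the 4 knockdown libraries 0, 0, 2 and 20.61. Its level was 0.441 ± 0.5002 TPM (SD, n = 4) and 0.414 ± 0.712 TPM (SD, n = 4), with an exact two-sided permutation p = 0.886, and it therefore does not check the group labels. In interferon response genes control 3 differed from its group, with a sum over 14 genes of 55.8 TPM against 149 to 239 TPM in controls 1, 2 and 4. The knockdown libraries had 51.2 to 58.7 TPM. Lens genes separated the groups in the other direction, with 2.83 to 5.61 TPM over 10 genes in the controls and 37.1 to 405 TPM in the knockdown. The part of either list in the values below was not tested.

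Most chemokine genes had few counts or none. A gene was taken as detected at 1 TPM or more in at least 4 of the 8 libraries, and 16 of the 57 met this. By the same rule 16118 of all 57010 genes were detected, a similar share. The 16 comprised 6 of 24 CC ligands, 4 of 13 CXC ligands, 3 of 16 conventional receptors and 3 of 4 atypical receptors. Of the 41 others, 10 had 0 counts in every library, among them Ccl20, Cxcl3 and Ccr4. Most of the summed level came from few genes: Cxcl14, Ackr1, Ccl27a and Ccl25 together held 78.2% of the mean TPM summed over all 57. The receptor gene Ackr1 held 22.2%, and its level is uncertain because it shares exonic bases with Cadm3, as given below. Just inside the detection rule were Ccl28, at 1 TPM in 4 libraries, and Ccl12, at 1 TPM in 5. Just outside it were Cxcl10 and Ackr4, each at 1 TPM in 3 libraries.

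**Figure D1:**
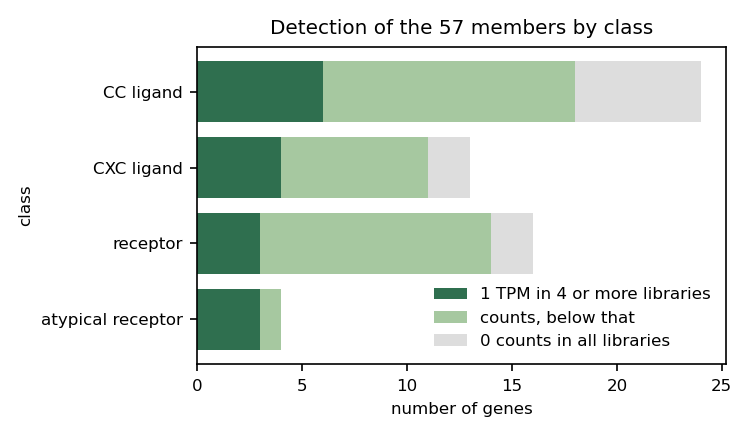
Number of genes (x axis) in each class of the 57 chemokine and receptor genes, split by detection; dark bars are genes at 1 TPM in 4 or more of the 8 libraries, pale green bars genes with counts below that, and grey bars genes with 0 counts throughout. Detected genes are 6 of 24 CC ligands, 4 of 13 CXC ligands, 3 of 16 conventional receptors and 3 of 4 atypical receptors.

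Promoter sequence was at hand for 42 of the 57 genes (RefSeq, GRCm38.p6). The 250 bases before the annotated start were searched on both strands for the core of the interferon-stimulated response element (ISRE; GAAA, any 2 bases, GAAA), for the κB consensus bound by NF-κB, for TGANTCA, bound by AP-1, and for TATAAA, the TATA box. Shown are Cxcl10, the textbook interferon-induced chemokine and the member with the smallest p-value among those below the detection rule, Ccl12, the detected member with the smallest p-value, and Cxcl14, the most abundant member. Each runs 5′ to 3′ on the strand of its gene, and capitals mark the matches to any of the 4 motifs.
Cxcl10, chr5:92348890-92349139, minus strand: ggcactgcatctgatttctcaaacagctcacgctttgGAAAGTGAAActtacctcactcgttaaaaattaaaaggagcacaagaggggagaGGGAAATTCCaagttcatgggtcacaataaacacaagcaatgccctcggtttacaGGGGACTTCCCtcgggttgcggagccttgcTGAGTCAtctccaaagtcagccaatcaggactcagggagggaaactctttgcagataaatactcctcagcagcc
Cxcl14, chr13:56296552-56296801, minus strand: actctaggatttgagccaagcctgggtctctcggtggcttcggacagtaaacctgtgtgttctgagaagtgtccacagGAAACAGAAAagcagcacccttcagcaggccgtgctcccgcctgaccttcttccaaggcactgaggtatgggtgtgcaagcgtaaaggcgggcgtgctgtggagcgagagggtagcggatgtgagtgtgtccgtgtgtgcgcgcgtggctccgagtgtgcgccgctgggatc
Ccl12, chr11:82101595-82101844, plus strand: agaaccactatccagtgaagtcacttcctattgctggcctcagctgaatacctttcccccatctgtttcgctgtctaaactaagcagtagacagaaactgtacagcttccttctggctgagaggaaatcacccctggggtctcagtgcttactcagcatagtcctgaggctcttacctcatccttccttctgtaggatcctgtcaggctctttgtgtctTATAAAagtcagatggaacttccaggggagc

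The Cxcl10 promoter held matches to 3 of the 4 motifs. Counting back from the start, its ISRE core match began at base -213, its κB matches at -159, -104 and -103 (the last pair overlap) and its TGANTCA match at -74. The ISRE core occurred in 2.98% of all 32851 promoter windows of this length and in 3 of the 42 chemokine and receptor genes, Cxcl10, Cxcl14 (at base -172) and Ccl19. The κB consensus occurred in 7.25% of all windows and in 11 of the 42 genes, TGANTCA in 6.75% and in 6 genes, and TATAAA in 12.4% and in 12 genes, Ccl12 (at base -31) among them. The 42 genes had 49 windows, and a gene was counted if any of its windows matched. Counts by gene and shares by window are therefore not on the same scale. These matches describe the letters of the windows only.

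No detected chemokine or receptor gene differed between knockdown and control retinas over all genes tested. In edgeR's quasi-likelihood test on 16118 genes, 0 of the 16 had an adjusted p under 0.05 (range 0.918 to 0.9997), against 0.0620% of all tested genes (0.0434% higher and 0.0186% lower in the knockdown). DESeq2 and limma on log2(TPM + 1) also called 0 of the 16. At an unadjusted p under 0.05 there was 1 member, Ccl12, against 5.27% of all tested genes, and 0 members had groups that did not overlap in TMM-scaled CPM, against 3.31%. Fold changes were negative for 8 and positive for 8, the median log2 fold change being -0.01, beside 48.2% negative and a median of 0.00 over all tested genes. Approximate 95% intervals, from each SE and 6 residual degrees of freedom, lay within a 2-fold difference in either direction for 13 of the 16 and within 1.5-fold for 10. For Ccl12, Ccl28 and Ccr10 a 2-fold difference lay inside the interval. In bulk tissue, fewer cells of a type and less RNA per cell cannot be told apart, which holds for every gene below.

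**Figure D2:**
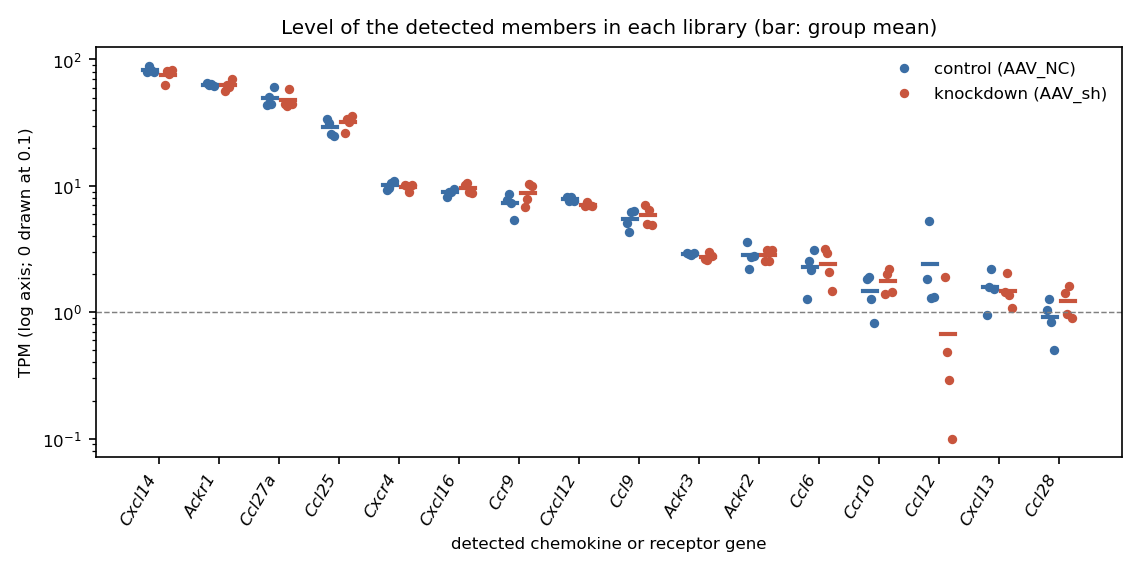
TPM on a log axis of the 16 detected genes in each of the 4 control (blue) and 4 knockdown (red) libraries, with bars at the group means and the detection threshold of 1 TPM as a dashed line. Genes run from Cxcl14 at 62.5 to 89.4 TPM down to Ccl28, and Ccl12 spreads most, from a value of 0 (drawn at 0.1) to 5.23 TPM.

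The most abundant chemokine was Cxcl14 (ENSMUSG00000021508; chromosome 13, 56288643 to 56296551 in GRCm38), a constitutively made CXC ligand of epithelia and brain. It had 79.1, 89.4, 83.1 and 80.3 TPM in controls 1 to 4 and 62.5, 80.5, 77.0 and 83.2 TPM in knockdown libraries 1 to 4. The groups overlapped, and knockdown 1 was the lowest. Its means were 83.0 ± 4.60 and 75.8 ± 9.21 TPM (SD, n = 4), with a log2 fold change of -0.14 (SE 0.07, interval -0.31 to 0.03, edgeR adjusted p = 0.936).

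Ccl27a (chromosome 4, 41769467 to 41774247) encodes a ligand known from skin that acts on Ccr10. It had 43.5, 50.1, 44.3 and 61.0 TPM in the controls and 44.3, 43.2, 58.1 and 44.1 TPM in the knockdown. Each group had 1 library well above the rest, control 4 and knockdown 3, and the log2 fold change was -0.08 (SE 0.14, interval -0.41 to 0.25, edgeR adjusted p = 0.997). Its near-identical paralog Ccl27b had 0 counts throughout, so how reads were shared between the pair is uncertain. Ccl28, a mucosal ligand that also binds Ccr10, was at 0.502 to 1.27 TPM in the controls and 0.898 to 1.60 TPM in the knockdown (log2 fold change 0.42, SE 0.30, edgeR adjusted p = 0.989).

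Ccl25 (chromosome 8, 4325210 to 4360020), the thymic and intestinal ligand of Ccr9, had 34.1, 31.7, 25.9 and 24.8 TPM in the controls. The knockdown libraries had 26.2, 33.7, 32.0 and 35.4 TPM, within or just above the control range, with a log2 fold change of 0.13 (SE 0.12, interval -0.17 to 0.42, edgeR adjusted p = 0.989). Its receptor gene Ccr9 (chromosome 9, 123678439 to 123784330) had 7.79, 8.65, 7.35 and 5.37 TPM in the controls and 6.79, 7.93, 10.4 and 9.96 TPM in the knockdown. Knockdown 3 and 4 lay above every control, and the other knockdown libraries did not. The log2 fold change of Ccr9 was 0.26 (SE 0.14, interval -0.08 to 0.61, edgeR adjusted p = 0.946). Other genes cover 21.5% of the exonic bases of Ccr9, mainly the opposite-strand AC165425.1 at a mean of 5.83 TPM, so the origin of part of its reads is uncertain. For Ccl25 that share was 2.7%, all with the opposite-strand gene Elavl1.

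The Cxcl12 axis is the one best known from vessel guidance. Cxcl12 (chromosome 6), made by endothelial and stromal cells, had 8.17, 7.64, 8.21 and 7.61 TPM in the controls and 6.93, 7.496, 6.99 and 6.90 TPM in the knockdown. In TPM the groups did not overlap, by a narrow gap between control 4 and knockdown 2, whereas they overlapped in TMM-scaled CPM. Means were 7.91 ± 0.327 and 7.08 ± 0.280 TPM (SD, n = 4), with a log2 fold change of -0.16 (SE 0.08, interval -0.36 to 0.03, edgeR adjusted p = 0.935, unadjusted p = 0.0640). Beside this, 7 of 8 endothelial markers and 6 of 6 pericyte markers had negative fold changes. None was called, against 0.0620% of all tested genes. At an unadjusted p under 0.05 in edgeR, 5 of the 8 and 4 of the 6 were lower, against 2.66% of all tested genes. The endothelial markers summed to 260 to 312 TPM in the controls and 259 to 273 TPM in the knockdown. Pericyte markers summed to 225 to 272 and 212 to 235 TPM, and their part in the Cxcl12 values was not tested.

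Cxcr4, the signalling receptor for Cxcl12, had 9.35, 9.61, 10.6 and 10.9 TPM in the controls and 10.2, 10.03, 8.98 and 10.2 TPM in the knockdown. Its values overlapped, with knockdown 3 lowest, and the log2 fold change was -0.04 (SE 0.12, interval -0.33 to 0.25, edgeR adjusted p = 0.997). Ackr3, the scavenging receptor for Cxcl12, had 2.95, 2.91, 2.83 and 2.95 TPM in the controls and 2.62, 2.57, 2.98 and 2.80 TPM in the knockdown. Knockdown 3 was above every control and the other knockdown libraries below every control, giving -0.09 on the log2 scale (SE 0.15, interval -0.45 to 0.27, edgeR adjusted p = 0.997).

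Cxcl16, a transmembrane ligand that can be shed and acts on Cxcr6, had 8.19, 9.003, 8.87 and 9.38 TPM in the controls and 10.1, 10.5, 8.99 and 8.84 TPM in the knockdown. Knockdown 1 and 2 were above the controls and the others within their range (log2 fold change 0.12, SE 0.11, edgeR adjusted p = 0.989). Zmynd15, on the opposite strand, shares 18.3% of its exonic bases and had a mean of 1.41 TPM. Ccl9, a macrophage-made ligand of Ccr1, had 5.04, 4.35, 6.24 and 6.33 TPM in the controls and 7.04, 4.95, 6.44 and 4.88 TPM in the knockdown (0.08, SE 0.17, edgeR adjusted p = 0.997). The groups overlapped, with control 2 below every knockdown library and knockdown 1 and 3 above every control. Ccl6, a neighbour of Ccl9 on chromosome 11 and a ligand of the same receptor, ranged from 1.27 to 3.10 TPM in the controls and 1.47 to 3.19 TPM in the knockdown. Cxcl13, the B-cell attracting ligand of Cxcr5, ranged from 0.957 to 2.22 and 1.08 to 2.03 TPM.

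Ccl12, a monocyte-attracting ligand of Ccr2 (ENSMUSG00000035352; chromosome 11, 82101845 to 82103400), was the detected gene that differed most, on few counts. Controls 1 to 4 had 8, 23, 6 and 6 estimated counts and the 4 knockdown libraries 8, 2, 1 and 0, or 1.82, 5.23, 1.29 and 1.31 TPM and 1.90, 0.482, 0.293 and 0 TPM. Control 2 was far above the other controls, and knockdown 1 lay within the control range while the other knockdown libraries lay below it. Means were 2.41 ± 1.89 and 0.669 ± 0.844 TPM (SD, n = 4). The log2 fold change was -1.76 (SE 0.77, interval -3.65 to 0.12, edgeR unadjusted p = 0.0389, adjusted p = 0.918). It met the detection rule through the 4 controls and knockdown 1, the group in which it was higher. Single libraries moved this value: leaving out control 2 gave -1.09 (edgeR adjusted p = 0.981). Leaving out knockdown 1 gave -3.12 (edgeR adjusted p = 0.388), with groups that then did not overlap.

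Cxcl10 (chromosome 5, 92346638 to 92348889), the interferon-induced ligand that draws activated T cells through Cxcr3, was below the detection rule and lower in most knockdown libraries. Controls 1 to 4 had 23, 18, 3 and 13 counts of it and the 4 knockdown libraries 5, 1, 2 and 0, which is 2.57, 2.01, 0.318 and 1.39 TPM and 0.583, 0.118, 0.288 and 0 TPM. Controls 1, 2 and 4 were above every knockdown library, and control 3 was among the knockdown values. Summed counts of 57 and 8, corrected for library totals, gave a level 6.36 times higher in the controls (95% exact counting interval 3.02 to 15.4, counting error between these libraries only). In an edgeR fit with no expression filter the log2 fold change was -2.60 (SE 0.69, interval -4.28 to -0.92, adjusted p = 0.0662), where 0.531% of 29582 genes were called. Without control 3 the log2 fold change was -2.94 and the edgeR adjusted p 0.00364, with 0.703% of genes called in that fit. Adjusted p also came under 0.05 without control 4 (0.0454) and without knockdown 1 (0.00183), was as high as 0.358 without control 1, and was 0.326 in DESeq2. As in the interferon response list, control 3 was the control that lay within the knockdown range, so leaving it out favours a lower call. The part of that list in the Cxcl10 values was not tested. Art3, on the opposite strand, shares 5.9% of the exonic bases of Cxcl10.

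The other ligands of Cxcr3 are induced by interferon as well and were barely read. Cxcl9 had 6 counts in all, every one in control 2, and Cxcl11 had 11 counts, with 1 in the knockdown group as a whole. GENCODE lists Cxcl11 as a polymorphic pseudogene, and whether it encodes a working ligand in these mice was not tested. The opposite-strand pseudogene Gm2673 shares 41.7% of the exonic bases of Cxcl11. Cxcr3 itself had 2 counts, in control 3. These 3 were chosen after their values were seen, and their counts are too few for a comparison.

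**Figure D3:**
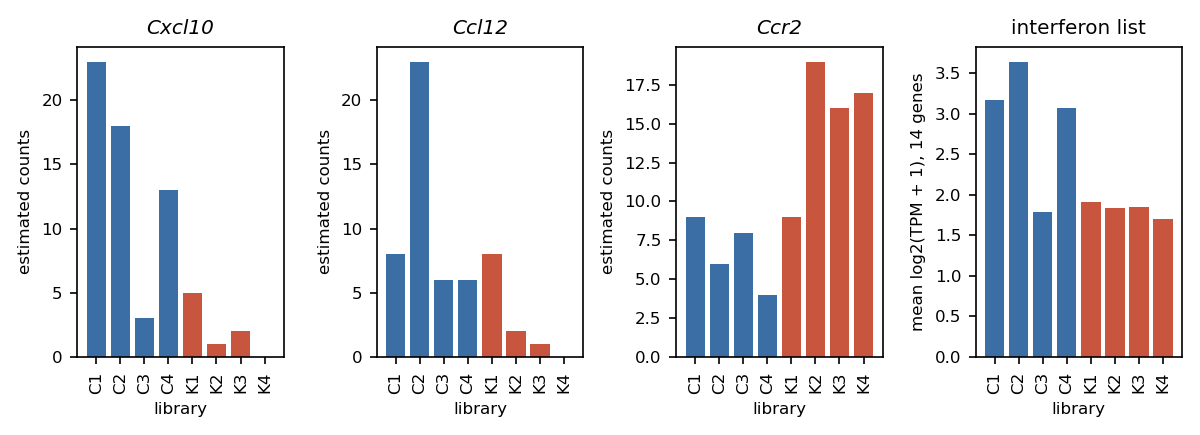
Estimated counts of Cxcl10, Ccl12 and Ccr2 in controls C1 to C4 (blue) and knockdown libraries K1 to K4 (red), with the mean log2(TPM + 1) of 14 interferon response genes at the right. Control 3 has 3 counts of Cxcl10 and an interferon mean of 1.79, near the 1.70 to 1.91 of the knockdown libraries, and Ccr2 is highest in K2, K3 and K4.

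The atypical receptor gene Ackr1, whose product on venules and red cells binds many inflammatory chemokines, had the highest level of any receptor. Its values were 64.7, 63.0, 63.8 and 61.8 TPM in the controls and 56.5, 62.8, 60.4 and 70.6 TPM in the knockdown, the knockdown libraries lying on both sides of the controls. The log2 fold change was -0.02 (SE 0.07, interval -0.20 to 0.16, edgeR adjusted p = 0.997). Ackr1 lies on chromosome 1 (173331886 to 173333750 in GRCm38, minus strand), and 25.7% of its exonic bases (361 of 1405) are also exonic in Cadm3, a same-strand neuronal adhesion gene with a mean of 361 TPM. Reads of these bases can be given to either gene, so the level of Ackr1 is uncertain. Ackr2, a scavenger of inflammatory CC ligands, had 3.57, 2.19, 2.73 and 2.80 TPM in the controls and 2.54, 3.13, 2.56 and 3.09 TPM in the knockdown (log2 fold change 0.00, SE 0.18, interval -0.45 to 0.45).

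Ccr10, the receptor for Ccl27a and Ccl28, was the least expressed detected receptor. It had 1.84, 1.91, 1.28 and 0.816 TPM in the controls and 1.40, 2.02, 2.19 and 1.44 TPM in the knockdown, with overlapping groups (log2 fold change 0.27, SE 0.31, interval -0.49 to 1.02, edgeR adjusted p = 0.989).

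The receptors of monocytes and macrophages were present below the detection rule. Ccr2, the receptor for Ccl2 and Ccl12 that marks inflammatory monocytes, had 9, 6, 8 and 4 counts in the controls and 9, 19, 16 and 17 in the knockdown. In TPM these were 0.313, 0.209, 0.264 and 0.134 against 0.326, 0.699, 0.717 and 0.602. Once scaled for depth all 4 knockdown libraries were above all 4 controls, knockdown 1 only just above control 1 with the same 9 counts. Groups that did not overlap with the knockdown higher were found for 1.20% of the 29582 genes fitted with no filter, and in either direction for 2.47%. The 61 counts of the knockdown group against 27 made a depth-corrected level 2.53 times higher (exact 95% counting interval 1.58 to 4.14), and the fit with no filter a log2 fold change of 1.32 (SE 0.48, interval 0.13 to 2.50, edgeR unadjusted p = 0.00855, adjusted p = 0.552). With each library left out in turn it ranged from 1.15 to 1.504. An unadjusted p under 0.05 was found for 5.12% of genes in the fit with no filter and for 6 of the 47 members with a count. The microglia and macrophage markers summed to 158 to 183 TPM in the controls and 149 to 204 TPM in the knockdown. In the main edgeR fit 0 of these 15 were called, against 0.0620% of all tested genes.

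Ccr1, the receptor for Ccl6 and Ccl9, had 11, 11, 9 and 18 counts in the controls and 22, 3, 18 and 12 in the knockdown, spread widely within both groups (0.34, SE 0.46). Cxcr6, the receptor for Cxcl16, had 14, 14, 1 and 8 counts in the controls and 17, 17, 12 and 9 in the knockdown, control 3 being the lowest (0.72, SE 0.50). Ackr4, which scavenges Ccl19, Ccl21 and Ccl25, had 15, 13.04, 4 and 14.16 counts in the controls and 6.07, 7.1, 7.04 and 15.05 in the knockdown (-0.25, SE 0.51). These values are log2 fold changes from the fit with no filter, and the edgeR adjusted p of the 3 genes ranged from 0.845 to 0.949.

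**Figure D4:**
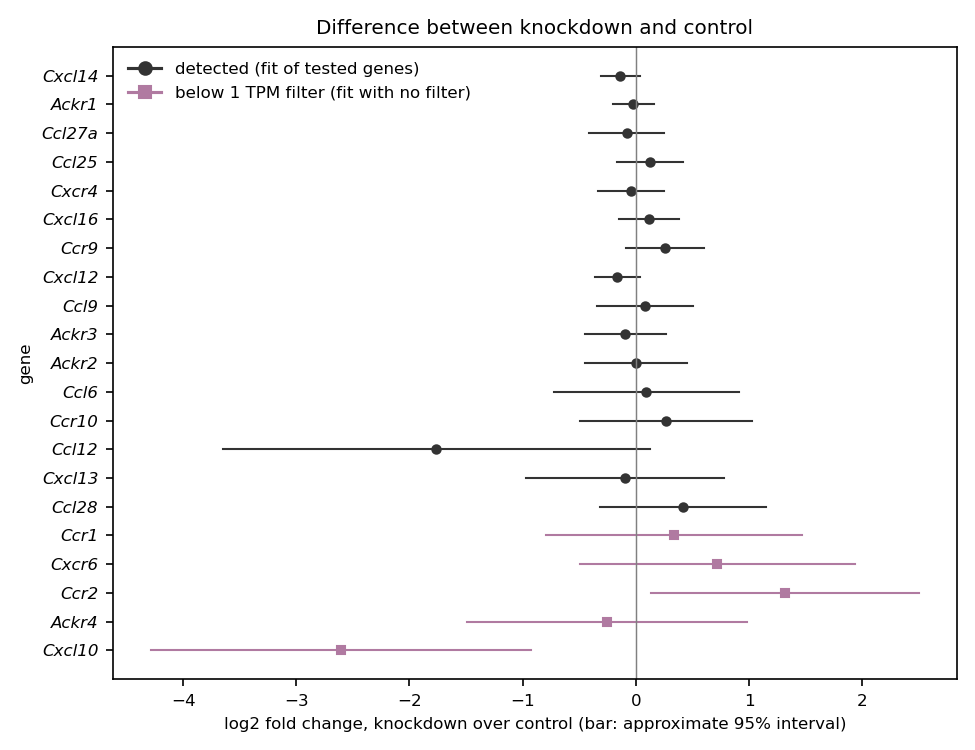
Log2 fold change of knockdown over control with approximate 95% intervals for the 16 detected genes (black circles) and for 5 members below the detection rule (purple squares, fitted with no filter). Intervals of all but Ccr2 and Cxcl10 cross 0, and neither of these passed after adjustment.

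A further 35 members reached at most 25 counts over all 8 libraries, and 25 of them had any. Among them were the main inflammatory ligands. Ccl2, the best known monocyte attractant, had 0, 1, 1 and 0 counts in the controls and 8, 2, 1 and 0 in the knockdown, most of them in knockdown 1. Ccl3 had 0 to 5 counts per library, Ccl5 0 to 7 and the neutrophil attractant Cxcl1 0 to 10, with 10 in control 3. These 4 were chosen after their values were seen. Of the receptors in this set, Cxcr1, Cxcr5 and Ccr7 had at most 15 counts each in total and Cxcr2 had 16.02. This does not hold for lymphocyte receptors in general: Ccr9, Ccr10 and Cxcr6, given above, had 2137.7, 174 and 92 counts. Neutrophil markers summed to 1.39 to 2.97 TPM in the controls and 2.53 to 5.26 TPM in the knockdown, highest in knockdown 1. Of these 9 genes, 3 (Ly6g, Mpo and Elane) had 0 counts in every library, while Csf3r had 0.743 to 1.24 TPM and S100a9 0.452 to 2.46 TPM. Markers of T and NK cells summed to 2.19 to 3.51 and 2.15 to 3.30 TPM. Of these 10 genes, 5 (among them Cd3d and Nkg7) had 0 counts in every library, and most of the sum was Cd8a, at 1.92 to 3.06 TPM.

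Relatives with other names were read in the same fit. Cx3cl1, the membrane-tethered neuronal chemokine that restrains microglia, had 51.6, 54.3, 51.1 and 50.9 TPM in the controls and 38.4, 51.6, 45.6 and 49.2 TPM in the knockdown. Only knockdown 2 of the knockdown libraries lay inside the control range, and knockdown 1 was the lowest (log2 fold change -0.18, edgeR unadjusted p = 0.0233, adjusted p = 0.859). Its microglial receptor gene Cx3cr1 had 7.36 ± 0.558 and 6.69 ± 0.579 TPM (SD, n = 4; edgeR adjusted p = 0.989). Pf4, the platelet chemokine, had 0.416 to 3.53 TPM in the controls and 1.06 to 7.59 TPM in the knockdown, with the highest value in knockdown 1. The chemerin gene Rarres2 had 8.81 to 13.6 and 9.34 to 17.0 TPM and its receptor gene Cmklr1 1.79 to 3.10 and 1.12 to 2.56 TPM. Ccrl2 had 0.918 to 1.71 and 0.591 to 1.53 TPM, and Gpr182, an atypical receptor of endothelium, 1.33 to 2.38 and 1.26 to 1.64 TPM. Of the 10 relatives 7 were tested and 0 were called, with 5 negative and 2 positive fold changes. Their median log2 fold change was -0.18.

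The machinery around the receptors was abundant, and none of it was called in edgeR, against 0.0620% of all tested genes. At that share 0 calls are likely in each of these lists. In the list of receptor signalling and trafficking genes 0 of 23 tested were called, with 14 negative and 9 positive fold changes and a median of -0.02. It includes the G protein subunit genes Gnb1, which photoreceptors use as well, at 3709 ± 68.4 and 3495 ± 173 TPM, and Gng2 at 735 ± 21.2 and 729 ± 87.5 TPM (SD, n = 4). Among inducers and NF-κB genes 0 of 18 were called, 11 positive and 7 negative with a median of 0.04. The cytokine genes Tnf, Il1b and Il6 were below the filter, Tnfaip3, a brake on NF-κB, had 106 ± 5.39 and 103 ± 8.19 TPM, and the kinase gene Chuk had 39.4 ± 2.85 and 40.6 ± 4.56 TPM (SD, n = 4). Adhesion and proteoglycan genes, which arrest leukocytes and hold chemokines on the vessel wall, gave 0 of 16 called, with a median of -0.01. They include Itgb1 at 104 ± 6.63 and 104 ± 5.82 TPM and Sdc4 at 77.6 ± 5.63 and 75.1 ± 11.4 TPM (SD, n = 4).

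Of the interferon signalling genes upstream of Cxcl10, 0 of 15 tested were called in edgeR, against 0.0620% of all tested genes. Fold changes were positive for 8 and negative for 7, with a median log2 fold change of 0.02. The kinase gene Jak1 had 86.7 ± 1.81 and 89.1 ± 5.81 TPM and the receptor gene Ifnar1 56.5 ± 3.82 and 57.7 ± 2.06 TPM (SD, n = 4). Without control 3, 3 of the 15 were called, all lower in the knockdown, where 0.319% of all genes tested in that fit were called lower. With any of the other libraries left out, 0 were called. Among them were Irf9, part of the interferon transcription complex, and Usp18, an inhibitor of the pathway, both named after their values were seen. They had 11.0 and 0.720 TPM in control 3, against at least 18.2 and 5.32 TPM in controls 1, 2 and 4. Usp18 is also in the interferon response list, in which control 3 stood out. Leaving out that library favours lower calls among such genes, so these calls are no separate evidence of a difference.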

How the data were processed

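The authors deposited 1 table of estimated counts per gene with a gene length. Its name says TPM, but its totals differ between libraries and 90.6% to 91.9% of entries are whole. Total RNA was extracted with TRIzol and read as paired ends, as the labels' protocols state. Per the submitters' processing notes, the work involved Bowtie 0.12.2 and the genome mm9, in roles they do not give. The tool that counted, its annotation and whether it used strand are not stated in the sources used. Columns of the authors' group means were not used.

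Counts were rounded for testing, and TPM was computed from unrounded counts and the deposited lengths. Genes at 1 TPM or more in at least 4 libraries (16118 of 57010) were tested in R 4.3.3 by edgeR 4.0.16 (quasi-likelihood test), with TMM scaling, group as the only term and Benjamini-Hochberg adjustment (threshold 0.05). Each SE was derived from the fold change and its F statistic. Alternatives used DESeq2 1.42.0 and limma 3.58.1, among others.

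Positions and shared exonic bases come from GENCODE M21 (GRCm38), which holds all 57 members and 91.3% of the table's identifiers. Values in every library are given for members at an unadjusted p under 0.05 or with groups that do not overlap, for the 6 ligands and 6 receptors with the highest mean TPM among those detected, and for undetected members among the 6 with the most counts. Each other list is shown by its 2 most abundant tested genes, and relatives in full. Some items are not reported here. Any further gene was named after its values were seen. The members, the gene lists and the naming rule were chosen with earlier results of these data known.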

Additional observations from a re-analysis of the deposited data

Results flagged for a closer look

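In 42 groups of 4 libraries (21 named members, each in the controls and in the knockdown), 4 held a library whose gap to its nearest neighbour took a larger share of the group's range than Dixon's 95% critical value. Chance flags about 1 in 20 groups. Ccl12 had 5.23 TPM in control 2 against 1.29 to 1.82 TPM in the other controls. Ccl27a had 58.1 TPM in knockdown 3 against 43.2 to 44.3 TPM in the other knockdown libraries. Cxcr4 had 8.98 TPM in knockdown 3 against 10.03 to 10.2 TPM, and Cxcl12 had 7.496 TPM in knockdown 2 against 6.90 to 6.99 TPM.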

How the results depend on the processing

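Among the detected members, and among all members with a count in the fit with no filter, 0 were called under the alternatives that changed 1 choice, each library left out in turn included. In fits with no filter that changed a second choice, Cxcl10 was called without control 3, control 4 or knockdown 1 (adjusted p 0.00364, 0.0454 and 0.00183) and with the replicate block (0.0438). Members at an unadjusted p under 0.05 numbered 2 with limma on log2(TPM + 1) or log2(TPM + 0.1), 6 of 47 with no expression filter, 0 with a mean TPM of at least 5 and 0 with filterByExpr, and 0 to 2 with a library left out. With the replicate number as a block, they numbered 2. Ccl12, the 1 such member of the main fit, did not pass the mean TPM filter or filterByExpr and was not tested there. Between libraries of the same replicate number, correlations of deviations were 0.0087, -0.0078, -0.033 and -0.155, and no library matched its own number best. Whether libraries of the same number were handled as pairs was not tested. Members with groups that do not overlap numbered 1 with either limma scale, 1 with no filter and 0 to 1 with a library left out. For these counts and those at unadjusted p, shares over all genes are given only for the main fit and the fit with no filter. A smaller group also separates more easily by chance, so the counts cannot be compared between settings. The median log2 fold change ranged from -0.080 to 0.035 with a library left out. Detected members numbered 22 at 0.5 TPM, 12 at 2 TPM, 12 at 1 TPM in all 8 libraries, 19 at 10 counts and 15 to 16 with a library left out. Other genes of the chemokine system called numbered 0 in the main fit, against 0.0620% of all tested genes. With no filter they numbered 4, where 0.531% of all 29582 genes were called. With a library left out they numbered 0 to 3. The 3 were interferon signalling genes lower in the knockdown, in the fit without control 3, where 0.319% of all tested genes were called lower. Control 3 was the control with low interferon response genes, so leaving it out favours such calls. The sign turned for Ackr2 with no filter (-0.0040), filterByExpr (-0.0011) and a Ddx3y covariate (-0.0097), and for Cxcl13 with that covariate (0.037). With a library left out, 7 genes had a sign that turned in at least 1 fit, over ranges of -0.079 to 0.0066 (Ackr1), -0.18 to 0.053 (Ccl27a), -0.080 to 0.015 (Cxcr4), -0.053 to 0.17 (Ccl9), -0.11 to 0.13 (Ackr2), -0.11 to 0.30 (Ccl6) and -0.29 to 0.12 (Cxcl13). The cause of these shifts was not tested. Fits with no filter that also left out a library, used DESeq2 or held the block were chosen after seeing the data. Depth limits the members below 1 TPM, such as Cxcl10, with at most 23 counts in a library.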
